A study of Homo sapiens with 10 samples.

Results

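The baseline transcriptome of control VCaP cells was described from the control libraries of a series in which the chromatin remodeler ATPases *SMARCA1* and *SMARCA4* were knocked down. VCaP is an established prostate cancer line derived from a vertebral metastasis, known for its *TMPRSS2-ERG* fusion. The members were the control libraries alone, 2 of the 10 libraries of the series, and the 8 knockdown libraries were not analysed here. Both control libraries came from VCaP cells of 1 line, labelled as epithelial cells with the genotype WT, and the labels give their treatment as control. The count columns name them siNC, the term the study uses for its control siRNA arm, so these are probably cells transfected with a control siRNA rather than untreated cells. Knockdown cells were collected 72 h after lipid transfection of siRNA. Nothing in the labels says that the replicates were separate cultures, so the spread between them may be technical. With 2 libraries, the value of each is given in place of a mean and SD, with control replicate 1 before control replicate 2.

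Poly(A)-selected RNA was sequenced with a strand-specific kit, and the deposited values were read counts per gene for 59386 listed genes. The libraries held 23898545 and 26552898 counts, and 22751 and 23437 genes had at least 1 count. CPM, the counts of a gene scaled to a library total of 1e+06, gives the share of a library taken by a gene. Levels of different genes were compared as TPM, and where CPM or counts of different genes are set side by side, they compare shares of a library. TPM divides each count by the deposited gene length, the summed exon bases of the gene, and then scales transcripts to the same total. A gene listed at 0 could hold up to 3 counts, which is 0.126 CPM in replicate 1 and 0.113 CPM in replicate 2, and such limits and all intervals below cover counting error only.

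Luminal prostate cells secrete kallikrein proteases and depend on androgens. Their identity is kept by lineage transcription factors, among them the pioneer factor FOXA1 and the homeodomain protein HOXB13. ETS factors share a DNA-binding domain, and ERG is the member most often joined to an androgen-driven promoter in prostate cancer. Chromatin remodelers use ATP to slide, evict or exchange nucleosomes and fall into the SWI/SNF, ISWI, CHD and INO80 families, each built around an ATPase of the SNF2 type.

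The kallikrein genes *KLK2* and *KLK3*, which encode hK2 and prostate-specific antigen, are neighbours on chromosome 19 and stood far apart in level in these libraries. The deposited spans are chr19:50861568-50880567 for *KLK2* and chr19:50854915-50860764 for *KLK3*, both on the plus strand of GRCh38. Their RefSeq promoters, the 250 bases before the transcription start in GRCh38.p14, are shown so that this pair can be compared, at chr19:50873189-50873438 (plus strand) for *KLK2* and chr19:50854665-50854914 (plus strand) for *KLK3*. Some annotated exons of longer *KLK2* transcripts lie within its window. Capitals mark the runs of at least 14 identical bases that both windows share in the same order.
KLK2: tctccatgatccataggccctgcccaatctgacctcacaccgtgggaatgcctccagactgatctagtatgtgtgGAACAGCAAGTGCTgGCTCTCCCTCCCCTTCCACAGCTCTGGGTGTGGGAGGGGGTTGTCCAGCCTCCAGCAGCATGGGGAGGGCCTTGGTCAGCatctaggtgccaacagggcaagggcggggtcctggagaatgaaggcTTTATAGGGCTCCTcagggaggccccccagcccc
KLK3: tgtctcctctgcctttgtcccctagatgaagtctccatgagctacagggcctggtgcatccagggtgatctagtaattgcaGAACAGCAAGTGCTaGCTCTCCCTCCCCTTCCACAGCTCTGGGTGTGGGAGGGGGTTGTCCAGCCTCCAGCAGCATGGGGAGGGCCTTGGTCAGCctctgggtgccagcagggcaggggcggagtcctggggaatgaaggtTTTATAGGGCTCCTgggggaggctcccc
The windows shared 3 such runs. The first, GAACAGCAAGTGCT, began 175 bases before the start of *KLK2* and 169 bases before that of *KLK3* and lies within the androgen response element known from these promoters. The next was 80 bases long. The last, TTTATAGGGCTCCT, began 34 and 28 bases before the start and opens with the TATA-like element TTTATA. The GC box GGGCGG began 59 and 53 bases before the start. Aligned end to end, 205 of 238 paired bases were identical (86.1%). Of the 35116 RefSeq promoter windows, 2 held GAACAGCAAGTGCT on either strand, those of *KLK2* and *KLK3*. A match is a description of the sequence and no evidence of binding.

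The GC box GGGCGG, searched like the other motifs on both strands, was found in 42.6% of all promoter windows, in 63.9% of the 14019 windows of protein-coding genes at 1 TPM or more in both libraries and in 35.9% of the 7408 windows of the other protein-coding genes. CCGGAAGT, the core recognised by many ETS factors, was found in 3.42% of all windows, 6.17% of the windows of expressed genes and 1.26% of those of the others. For TTTATA, found in 10.7% of all windows, the order was the other way round, with 5.81% and 14.9%. Among the windows of the remodeler genes described below, 64.5% of 138 held GGGCGG and 7.25% held CCGGAAGT. The promoter of *SMARCA5*, the ATPase of ISWI with the higher level, is shown as an example of this class, at chr4:143513452-143513701 (plus strand), with the GC box on the opposite strand, CCGCCC, in capitals. An exon of the antisense gene *SMARCA5-AS1* lies within this window.
SMARCA5: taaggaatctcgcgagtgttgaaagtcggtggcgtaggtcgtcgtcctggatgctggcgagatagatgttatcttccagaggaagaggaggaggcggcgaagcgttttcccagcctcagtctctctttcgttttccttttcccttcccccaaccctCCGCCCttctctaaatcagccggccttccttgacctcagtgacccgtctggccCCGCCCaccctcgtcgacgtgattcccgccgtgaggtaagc
The GC box began 94 and 41 bases before the start of *SMARCA5*. These shares are descriptions with no test, and genes were split only by level.

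In all, 14508 of 59386 listed genes (24.4%) were at 1 TPM or more in both libraries, which was the case for 61.1% of protein-coding genes and 12.8% of long non-coding RNA genes. Protein-coding genes took 97.6% of the counts in replicate 1 and 97.5% in replicate 2. The 948 genes with most counts held 50% of them. The 25 with most counts held 7.70% (exact 95% binomial interval 7.69 to 7.71%) and 7.95% (7.94 to 7.96%), and the 10 with most counts held 4.29% and 4.53%. Cytosolic ribosomal protein genes took 7.05% and 7.17% of counts. The mitochondrial genome took 1.84% and 1.92% of counts but 8.05% and 8.26% of TPM, and its genes are short.

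*EEF1A1*, the elongation factor that brings tRNA to the ribosome, had the most counts, at 12832.5 and 13520.3 CPM. *KLK2* came next at 4668 and 5008 CPM, ahead of the mitochondrial cytochrome oxidase gene *MT-CO1* at 3914 and 3896 CPM. The glycolytic enzyme *GAPDH*, the poly(A)-binding protein *PABPC1*, the matrix protein *SPON2*, the ribosomal stalk gene *RPLP0* and the fatty acid synthase *FASN* followed, between 2892 and 3575 CPM. *SPON2* had 3057 and 3482 CPM, and its range overlapped those of its neighbours *PABPC1* and *RPLP0* in the order. Of the 24 pairs of neighbours among these 25 genes, 16 overlapped between the libraries, so much of the order below *KLK2* is not resolved. The 25 held 3 mitochondrial genes, 6 ribosomal protein genes and 16 others, among them the chaperones *HSPA8*, *HSP90AB1*, *HSP90B1*, *CANX* and *CALR* and the hypoxia and androgen responsive gene *NDRG1*.

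**Figure D1:**
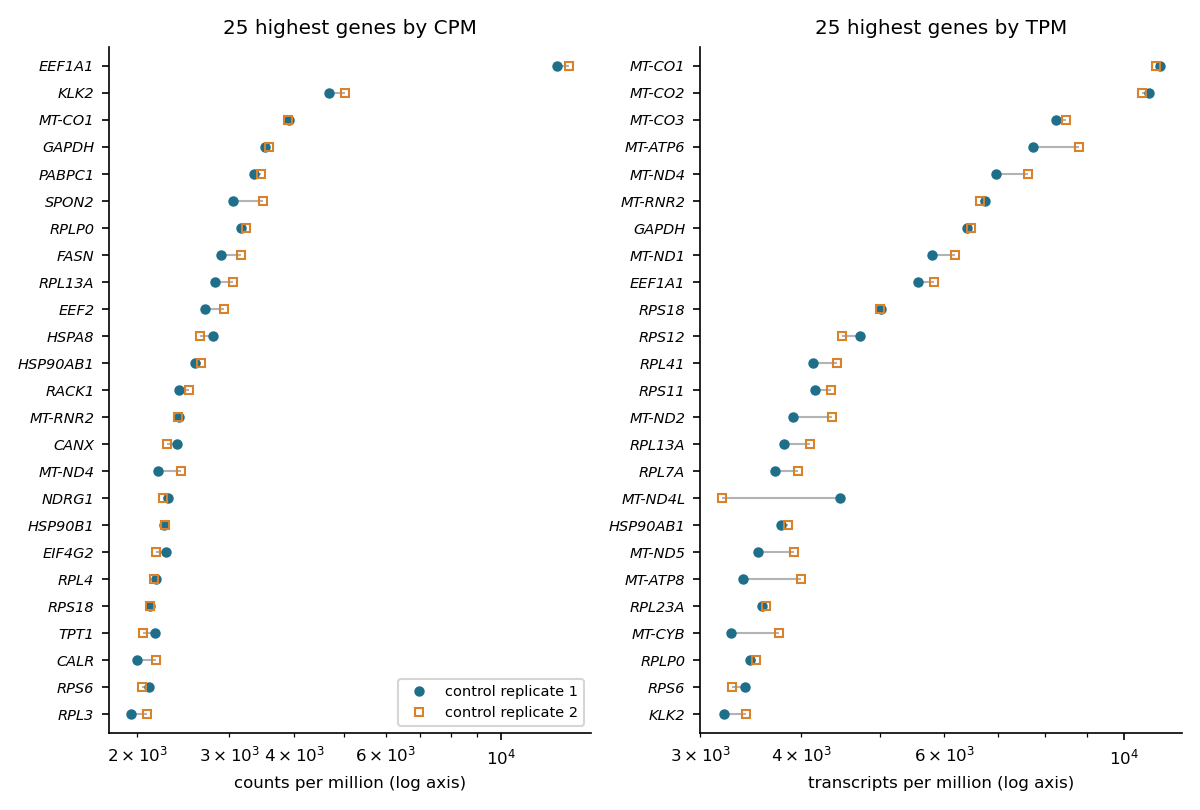
The 25 highest genes by CPM (left) and by TPM (right), with replicate 1 as filled circles and replicate 2 as open squares on log axes. *EEF1A1* stands apart on the left at 12832.5 and 13520.3 CPM, and 12 mitochondrial genes fill much of the right panel.

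Scaled by the deposited length, the order was led by the mitochondrial genes. This lead depends on that length, which is 1542 bases for *MT-CO1* and 10063 bases for *EEF1A1*. *MT-CO1* was at 11079 and 10956 TPM and *MT-CO2* at 10731 and 10514 TPM, 2 subunits of cytochrome oxidase whose ranges did not overlap. The TPM order held 12 mitochondrial genes, 9 ribosomal protein genes and 4 others, which were *GAPDH* at 6403 and 6470 TPM, *EEF1A1* at 5566 and 5826 TPM, *HSP90AB1* at 3775 and 3855 TPM and *KLK2* at 3208 and 3419 TPM. Only 11 genes were in both sets of 25. *KLK2* was thus the 2nd gene by counts and the 25th by TPM with the deposited length, and *SPON2* and *NDRG1* were the other genes of the prostate secretory list in either set. The short gene *MT-ND4L*, a subunit of complex I, had 4469.9 TPM in replicate 1 and 3192 TPM in replicate 2.

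Long genes moved most, which follows from dividing counts by the deposited length and is no trait of these cells. Among the 500 genes with most counts, the protein-coding genes with the largest fall in rank from CPM to TPM were *EIF3E* (368th to 4024th), *DYNC1H1*, the heavy chain of cytoplasmic dynein (294th to 3702nd), and *CSNK2A1*, a catalytic subunit of casein kinase 2 (486th to 3892nd). The fall of *EIF3E*, a subunit of the translation initiation factor eIF3, rests on its deposited length of 37761 bases. The SWI/SNF subunit *ARID1A* was also among the 10 with the largest fall, from the 464th to the 2072nd place. The largest rise was that of *PRDX5*, an antioxidant enzyme with a deposited length of 860 bases, from the 485th to the 60th place. *PPDPF* (433rd to 67th) and *FAU*, a ribosomal protein fused to a ubiquitin-like one (442nd to 116th), came next, and *EPCAM* was also among the 10 with the largest rise, from the 498th to the 223rd place. Among the 164 shortest of these genes, up to 4418 bases, the median rank went from 212 to 133.5, and among the 164 longest, from 7907 bases, it went from 268.5 to 894.5.

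The labelled cell type was checked against its markers. All 10 luminal epithelial markers were at 1 TPM or more in both libraries, against 61.1% of all protein-coding genes. At 100 TPM or more in both were 7 of them, against 1769 of the 19217 protein-coding genes. The luminal markers ran from *CLDN7* at 72.4 and 72.7 TPM to the simple epithelial keratin *KRT18* at 610.9 and 628.7 TPM. *EPCAM*, an epithelial adhesion protein, was at 607 and 552 TPM, *KRT8* at 344 and 344 TPM and the E-cadherin gene *CDH1* at 304 and 293 TPM. The basal markers were low, since 1 of 7 reached 1 TPM in both libraries. That was *KRT14* at 5.91 and 6.95 TPM, while *KRT5* had no count in either library and *TP63* had 0 and 1 count. None of 5 endothelial markers reached 1 TPM in both libraries, and *CDH5*, *KDR* and *TEK* had no count. Of 7 immune markers, *CD14* and *LYZ* reached it at 4.10 and 4.86 TPM and at 2.01 and 1.33 TPM, and *PTPRC* and *CD3E* had no count. *CD68* had no count either, but 97.6% of its coding bases are shared with RP11-186B7.4 on the same strand, so its level is uncertain.

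Of 10 stromal markers, 5 reached 1 TPM in both libraries, and their summed level was 45.2 and 41.1 TPM against 2651 and 2610.4 TPM for the luminal list. The matrix proteoglycan *LUM* made up most of it at 30.3 and 25.2 TPM. In bulk RNA, fewer cells of a type and less RNA per cell cannot be told apart. The mesenchymal filament gene *VIM* was at 2.89 and 2.84 TPM, far under the keratins. Of 10 neuroendocrine genes, 7 were at 1 TPM or more in both libraries (70%), near the 61.1% of all protein-coding genes. The synaptic vesicle protein *SYP* was at 36.2 and 37.05 TPM, the granins *CHGB* and *CHGA* at 33.8 and 37.1 TPM and at 19.02 and 21.2 TPM, and the transcription factor *INSM1* at 28.9 and 25.3 TPM. *SYP* and *CHGB* did not differ beyond their spread. *NEUROD1*, a driver of neuronal differentiation, had no count.

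**Figure D2:**
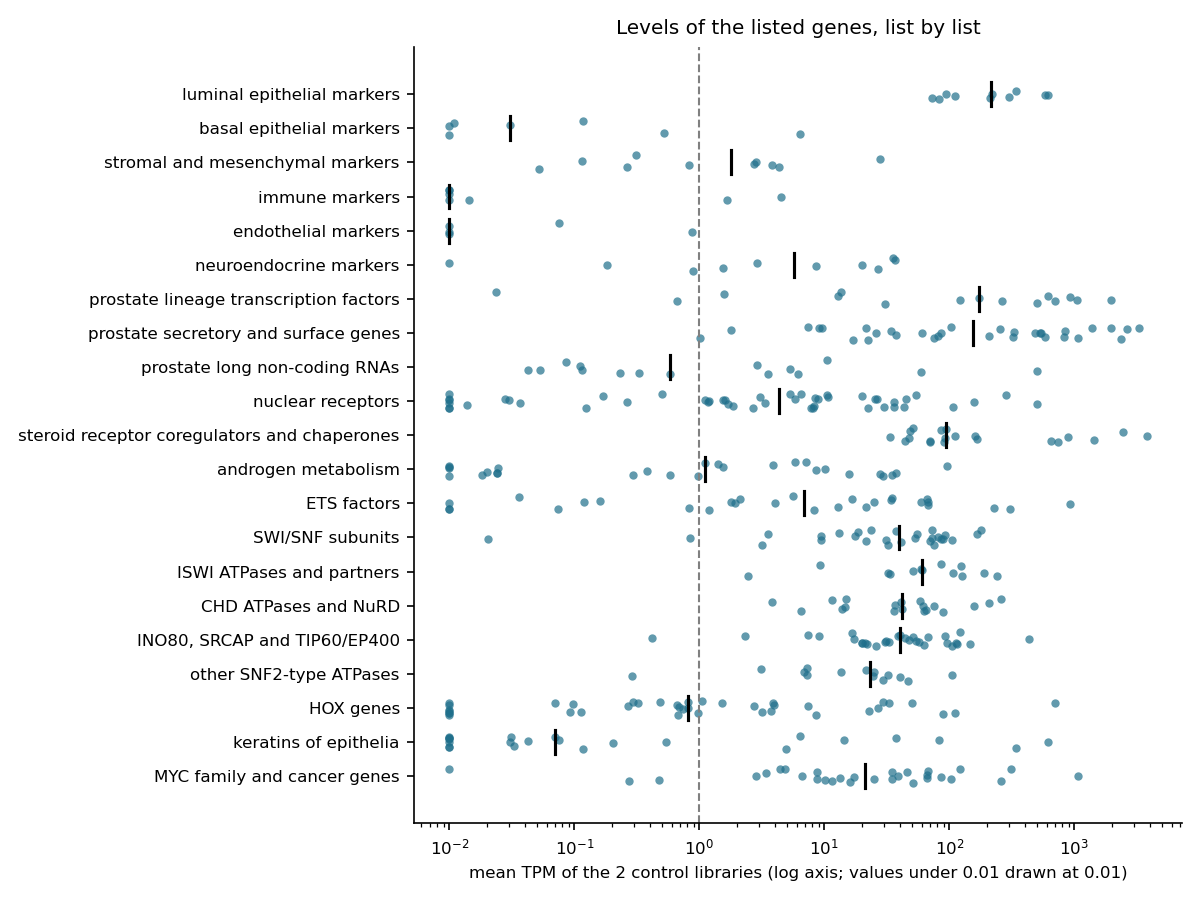
Mean TPM of each listed gene over the 2 control libraries (log axis), in 1 row per list, with a bar at the list's median and a dashed line at 1 TPM. Luminal markers, lineage factors and coregulators lie mainly to the right, and basal, immune and endothelial markers to the left.

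Of 15 prostate lineage transcription factors, 13 were at 1 TPM or more in both libraries, against 61.1% of all protein-coding genes. At 100 TPM or more in both were 9 of them, against 1769 of the 19217 protein-coding genes. *FOXA1*, the pioneer factor, was at 1075 and 1016 TPM, and *SPDEF*, an ETS factor of luminal and secretory cells, at 871 and 989.8 TPM. *HOXB13* was at 682 and 707 TPM and *GATA2* at 593 and 629 TPM, and the ranges of these factors did not overlap. *GRHL2*, which maintains epithelial junction genes, was at 265 and 264 TPM, *CREB3L4* at 166 and 179 TPM and *SOX9* at 123 and 122 TPM. *GATA3* was at 0.699 and 0.625 TPM, *MEIS1* at 1.60 and 1.54 TPM, and *MEIS2*, a HOX cofactor, had 1 and 2 counts. *FOXP1* was at 14.5 and 12.9 TPM, and 85.2% of its coding bases are shared with another listed gene on the same strand.

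Among 32 prostate secretory and surface genes, 31 were at 1 TPM or more in both libraries, against 61.1% of all protein-coding genes. At 100 TPM or more in both were 17 of them, against 1769 of the 19217 protein-coding genes. Together the 32 genes took 2.08% and 2.13% of all counts. *KLK2* was highest at 3208 and 3419 TPM. *NPY*, a secreted neuropeptide, was at 2574 and 2716 TPM, *SPON2* at 2229.5 and 2523 TPM and *ACP3*, prostatic acid phosphatase, at 1417 and 1358 TPM. *KLK3* was at 56.9 and 64.2 TPM, so that *KLK2* was 56.4 and 53.3 times higher per length. With the longest reference transcript as length, *KLK2* was at 5291 TPM as a mean and 71.1 times above *KLK3*. Counts for *KLK3* were 1445 and 1823, against 111568 and 132973 for *KLK2*. The promoter windows printed above, with their shared element, belong to this pair. The 2 genes are paralogs, and how reads that fit both were counted is not given in the sources used here.

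The kallikrein *KLK4* was at 490.5 and 573 TPM and *KLK15* at 10.1 and 9.13 TPM. *PMEPA1*, an androgen-induced inhibitor of TGF-beta signalling, was at 1051 and 1074 TPM, and the surface proteins *SLC45A3* and *STEAP1* at 815 and 868 TPM and at 549.6 and 522 TPM. *TRPM8*, a cold-sensing calcium channel, was at 498 and 465 TPM, and *FOLH1*, which encodes the prostate-specific membrane antigen, at 208 and 205 TPM. *TMPRSS2*, a membrane serine protease, was at 102 and 106 TPM. The secreted proteins *MSMB* and *AZGP1*, abundant in normal prostate fluid, were lowest, with 10 and 9 counts and with 11 and 20 counts. *AMACR*, a peroxisomal racemase raised in many prostate cancers, was at 20.2 and 23.0 TPM, and 60.4% of its coding bases are shared with the readthrough gene *C1QTNF3-AMACR*.

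Of the 48 nuclear receptors, ligand-gated or orphan transcription factors, 33 were at 1 TPM or more in both libraries, 68.8% against 61.1% of all protein-coding genes. Among the steroid receptors, the mineralocorticoid receptor gene *NR3C2* was at 7.44 and 5.46 TPM and the glucocorticoid receptor gene *NR3C1* at 3.39 and 3.32 TPM. The progesterone receptor gene *PGR* was at 0.249 and 0.278 TPM, from 20 and 25 counts. The oestrogen receptor genes were at the limit of detection, as *ESR2* had 1 and 0 counts and *ESR1* had 0 counts in both libraries. *ESRRA*, an orphan receptor of mitochondrial and energy genes, was at 274 and 295 TPM, above the other receptors named here.

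*NR2F2*, a COUP-family repressor, was at 161 and 157 TPM and its relative *NR2F6* at 108 and 108 TPM. The retinoid X receptors, shared partners in receptor dimers, were split, with *RXRA* at 53.0 and 55.8 TPM, *RXRB* at 40.5 and 46.0 TPM and *RXRG* with 0 and 1 count. The vitamin D receptor *VDR* was at 10.8 and 10.2 TPM and *RARG*, a retinoic acid receptor, at 10.9 and 10.6 TPM, and these 2 did not differ beyond their spread. All 5 circadian receptors reached 1 TPM in both libraries, and *NR1D2*, a haem-binding repressor, was the highest of them at 39.9 and 32.8 TPM. *PPARD* and *PPARA*, sensors of fatty acids, were at 21.6 and 22.8 TPM and at 20.5 and 19.5 TPM, and *PPARG* at 1.52 and 1.59 TPM. The order of the receptors was loose, since 27 of 47 pairs of neighbours overlapped between the libraries.

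**Figure D3:**
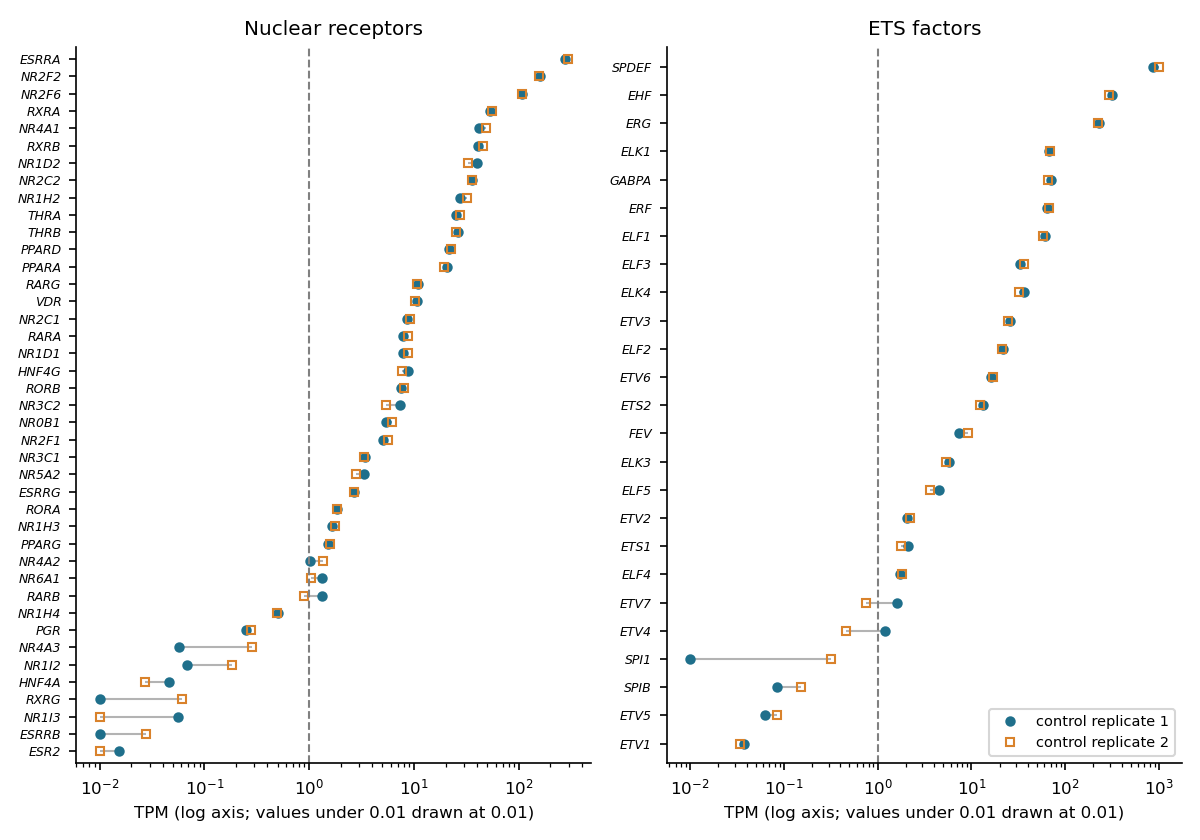
TPM of the nuclear receptors (left, 2 receptors not shown) and ETS factors (right) with any count, in order of mean level, with replicate 1 as filled circles and replicate 2 as open squares on log axes and a dashed line at 1 TPM. *ESRRA* at 274 and 295 TPM and *SPDEF* at 871 and 989.8 TPM lead their panels, and the libraries part mainly below 1 TPM.

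All 20 coregulators and chaperones of steroid receptors were at 1 TPM or more in both libraries, against 61.1% of all protein-coding genes. At 100 TPM or more in both were 9 of them, against 1769 of the 19217 protein-coding genes. The highest members of the list were chaperones. *HSP90AB1* was at 3775 and 3855 TPM, *HSPA8* at 2520.1 and 2362 TPM, *STIP1*, which hands clients from HSP70 to HSP90, at 1394 and 1457 TPM and *FKBP4*, an immunophilin that helps steroid receptors mature, at 636 and 659 TPM. Its relative *FKBP5*, an androgen-induced gene, was at 86.6 and 83.8 TPM. Among the coactivators, *NCOA4* was at 173 and 159 TPM and *NCOA2* at 97.1 and 92.0 TPM, above *NCOA3* at 47.3 and 47.3 TPM and *NCOA1* at 43.5 and 45.1 TPM. The histone acetyltransferase *EP300* was at 91.4 and 91.2 TPM and its paralog *CREBBP* at 32.0 and 34.8 TPM. The corepressor *NCOR1* was at 90.6 and 94.8 TPM.

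Of 27 genes of androgen synthesis and inactivation, 14 were at 1 TPM or more in both libraries, 51.9% against 61.1% of all protein-coding genes, and none at 100 TPM or more in both. The steps from cholesterol were at the limit of detection, since *CYP17A1*, *CYP11A1* and *STAR* had 0 and 1 count each, and *HSD3B2* had no count. Apart from these steps, the aromatase gene *CYP19A1* also had no count. *HSD3B1*, which makes androstenedione from DHEA, had 3 and 14 counts. Enzymes of later steps were present. *AKR1C3*, which reduces androstenedione to testosterone, was at 34.1 and 35.1 TPM, and the steroid sulfatase gene *STS* at 16.4 and 14.9 TPM. Of the 5-alpha-reductases that make dihydrotestosterone, *SRD5A1* was at 10.4 and 10.04 TPM, and *SRD5A2* had 1 and 0 counts. *SRD5A3* was at 0.972 and 0.996 TPM, and all of its coding bases (100%) are shared with another listed gene.

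On the side of inactivation, *HSD17B11* was the highest of the list by TPM, at 100.2 and 92.0 TPM, and *HSD17B4* was at 38.0 and 36.5 TPM. This order rests on length, since *HSD17B4* had more counts, 5186 and 5563, over a deposited length of 24901 bases. *HSD17B11* had 1280 and 1314 counts over 2332 bases. The glucuronidating enzyme genes *UGT2B15* and *UGT2B17*, which clear dihydrotestosterone, were at 27.6 and 31.8 TPM and at 9.02 and 5.27 TPM. These genes are near-identical copies of each other, so the split between them is uncertain. *UGT2B17* differed by more than 1.5-fold between the libraries, with 127 and 83 counts.

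Of 28 ETS factors, 19 were at 1 TPM or more in both libraries, 67.9% and thus near the 61.1% of all protein-coding genes. By TPM, *SPDEF* was the highest at 871 and 989.8 TPM, followed by *EHF*, an epithelial ETS factor, at 319 and 294 TPM. *ERG* came next at 228 and 225 TPM, with no overlap among these factors. In raw share the order differed, with *EHF* highest at 483.1 and 449.2 CPM. *SPDEF* at 381.9 and 436.9 CPM overlapped *ERG* at 395.3 and 393.4 CPM. The deposited lengths are 1914 bases for *SPDEF*, 6617 for *EHF* and 7582 for *ERG*. *ERG*, at chr21:38380027-38661780 on the minus strand, had 9446 and 10445 counts. Its closest relative *FLI1* had no count, and *FEV* was at 7.42 and 9.12 TPM. *ELK1*, *GABPA* and *ERF*, broadly expressed members, lay between 64.3 and 70.1 TPM and did not differ beyond their spread. *ELF1* was at 60.8 and 57.4 TPM and *ELF3*, a further epithelial factor, at 33.3 and 36.2 TPM. *ETS2* was at 13.4 and 12.3 TPM and *ETS1* at 2.12 and 1.76 TPM.

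The PEA3 members that other prostate cancers carry as fusions were low, and *ETV1* and *ETV5* were at the limit of detection. *ETV1* had 2 and 2 counts, *ETV5* had 2 and 3 counts, and *ETV4* was at 1.20 and 0.465 TPM from 23 and 10 counts. *ETV4* and *ETV7* were the ETS factors that differed by more than 1.5-fold between the libraries, 2 of 21 with 20 counts or more. The share was 2.26% over all genes tested but 9.83% over those under 1 CPM, where both of these lay. *ERG* was 2.23 and 2.13 times higher than *TMPRSS2* per length, and gene counts do not separate fusion transcripts from others.

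Between *ERG* and *TMPRSS2*, the segment of 2802519 bases that the fusion spans held 54 listed genes. Of these, 13 were at 1 TPM or more in both libraries, near the share of 24.4% over all listed genes. The nucleosome-binding protein gene *HMGN1* was by far the highest at 396 and 372 TPM. The proteasome assembly chaperone *PSMG1* was at 50.7 and 50.01 TPM, *FAM3B* at 28.3 and 28.5 TPM, *PCP4* at 22.8 and 33.7 TPM and *BACE2* at 23.5 and 22.9 TPM. *BRWD1*, a bromodomain protein, was at 24.6 and 21.2 TPM and *DSCAM*, a neuronal adhesion protein, at 3.08 and 2.56 TPM. How many DNA copies this segment has was not measured here.

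Nearly all remodeler genes were expressed: 101 of 105 were at 1 TPM or more in both libraries, against 61.1% of all protein-coding genes. At 100 TPM or more in both were 17 of them, against 1769 of the 19217 protein-coding genes. Together the 105 genes took 1.04% and 1.05% of counts. At 1 TPM the count was 26 of 28 for SWI/SNF, 13 of 13 for ISWI and 19 of 19 for CHD and NuRD. It was 30 of 31 for INO80, SRCAP and TIP60 complexes and 13 of 14 for other SNF2-type ATPases. The 7 remodeler genes with more than 50% of their coding bases shared with another listed gene on the same strand are uncertain, since the counting could split their reads. These were *SMARCE1*, *MBD3*, *CHD4*, *SRCAP*, *INO80B*, *RAD54B* and *CHD1L*. Over the whole file, 41.9% of the 918 protein-coding genes with such sharing were at 1 TPM or more in both libraries, against 61.7% of the 17227 with none, and the part of the sharing in this difference was not tested.

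In SWI/SNF, which slides and evicts nucleosomes, the core scaffold *SMARCC1* led at 182 and 178 TPM, followed by *SMARCD2* at 164 and 170.2 TPM. The ATPase *SMARCA4* (chr19:10960932-11079426, plus strand) was at 68.3 and 76.0 TPM and its paralog *SMARCA2* (chr9:1980290-2193624, plus strand) at 30.3 and 31.5 TPM, a ratio of 2.25 and 2.41. *ARID1A* was at 90.8 and 94.5 TPM and *ARID1B* at 12.7 and 13.3 TPM, alternative subunits of the BAF form. Their ratio of 7.15 and 7.08 fell to 3.11 when the longest reference transcript served as length. The PBAF subunits *PBRM1* and *ARID2* were at 107 and 103 TPM and at 42.3 and 40.05 TPM. The subunits of the non-canonical form were lower, with *BICRA* at 16.7 and 20.8 TPM, *BICRAL* at 18.3 and 17.1 TPM and *BRD9* at 8.74 and 10.02 TPM. *ACTL6B*, the actin-related subunit of the neuronal form, was at 19.5 and 23.4 TPM beside *ACTL6A* at 74.8 and 69.7 TPM. *DPF3* had 4 and 0 counts. The lowest core subunits were *SMARCD3* at 3.49 and 3.55 TPM and *SMARCE1* at 3.72 and 2.60 TPM, which did not differ beyond their spread, with 70.5% of the coding bases of *SMARCE1* shared with RP5-1028K7.3.

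In ISWI, which spaces nucleosomes, *SMARCA5* (chr4:143513702-143557486, plus strand) was at 107 and 106 TPM and *SMARCA1* (chrX:129446501-129523500, minus strand) at 32.3 and 31.7 TPM. *SMARCA5* was thus 3.31 and 3.34 times higher per length, and 3.47 times with the longest reference transcript as length. In raw share the gap was wider, at 6.18 and 6.24 times in CPM. The histone-fold subunit *POLE3* was the highest of this group at 248 and 229.8 TPM, and the partner subunits *BAZ1B*, *BAZ2A* and *BPTF* were at 183 and 192 TPM, at 125 and 129.6 TPM and at 56.7 and 61.8 TPM. *CECR2* was lowest at 2.62 and 2.30 TPM. Across families, *SMARCA1* and *SMARCA2* had close levels, 32.0 and 30.9 TPM as means. Their order depended on the length used, as the longest reference transcript put *SMARCA2* at 58.3 TPM and *SMARCA1* at 23.3 TPM. With that length *SMARCA4* was at 138 TPM and *SMARCA5* at 80.8 TPM.

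Among the CHD ATPases, *CHD3*, a NuRD ATPase, was the highest at 151 and 162 TPM. *CHD6* was at 64.8 and 64.9 TPM, *CHD1*, which acts in transcribed genes, at 61.2 and 60.9 TPM, and *CHD8* at 36.8 and 36.3 TPM. *CHD4*, the other main ATPase of NuRD, was listed at 6.36 and 6.64 TPM, and 93.1% of its coding bases are shared with RP5-940J5.10. The NuRD deacetylase *HDAC1* was at 258 and 261 TPM, above *HDAC2* at 63.6 and 60.7 TPM. In raw share these deacetylases were close, at 234.7 and 238.4 CPM for *HDAC1* and 223.6 and 214.8 CPM for *HDAC2*. Their deposited lengths are 3966 and 15333 bases. *MTA2* was at 205 and 214 TPM. *CHD5*, a mainly neuronal member, was the lowest at 3.64 and 4.03 TPM.

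In the INO80 and SRCAP families, which exchange histone H2A.Z, *MORF4L1*, a chromodomain subunit of TIP60, led at 452 and 423 TPM. The shared helicases *RUVBL2* and *RUVBL1* were at 138 and 155 TPM and at 66.8 and 67.7 TPM. The ATPase *INO80* was at 38.7 and 39.0 TPM and *EP400* at 25.9 and 25.7 TPM. *SRCAP* was listed at 2.28 and 2.41 TPM and *INO80B* at 3 and 4 counts, with 93.8% and 97.3% of their coding bases shared with other genes. Outside these families, *HLTF*, a fork-remodelling ATPase, was at 110.2 and 100.2 TPM, *ATRX* at 47.9 and 45.1 TPM and *HELLS* at 21.97 and 21.3 TPM.

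**Figure D4:**
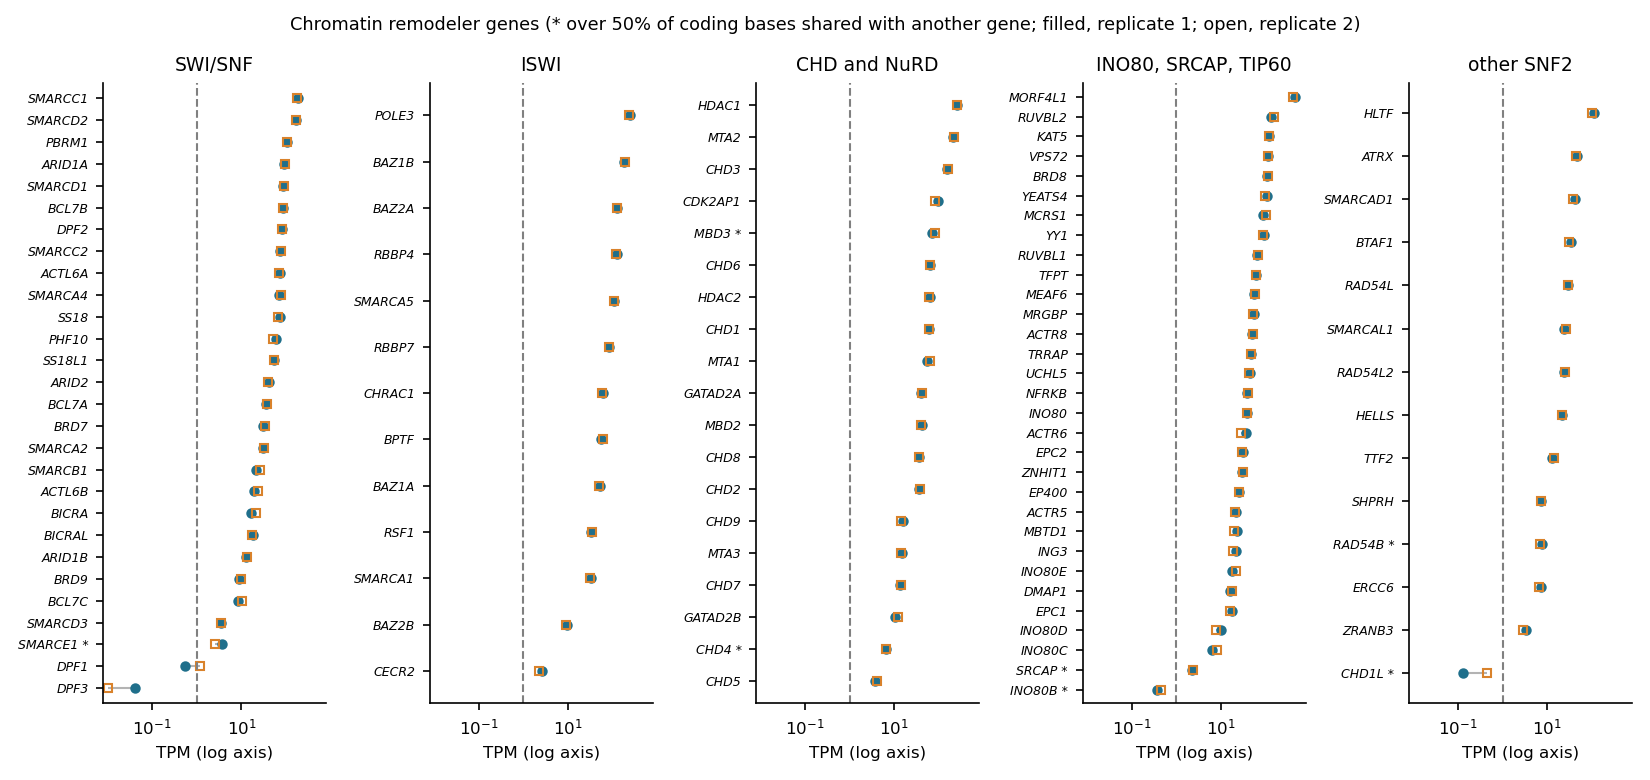
TPM of the 105 remodeler genes by family on log axes, with replicate 1 filled, replicate 2 open, a dashed line at 1 TPM and values under 0.01 drawn at 0.01. Genes marked with an asterisk share over 50% of their coding bases with another gene, and they include *CHD4* at 6.36 and 6.64 TPM and *SRCAP* at 2.28 and 2.41 TPM, near the foot of their panels.

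Of 39 HOX genes, which set position along the body axis, 16 were at 1 TPM or more in both libraries, 41.0% against 61.1% of all protein-coding genes. *HOXB13* stood apart at 682 and 707 TPM, 5.88 and 6.73 times above *HOXA13* at 116 and 105 TPM. *HOXA10* was at 87.2 and 89.3 TPM, *HOXC6* at 49.9 and 50.9 TPM and *HOXA9* at 33.8 and 32.3 TPM. In the HOXA cluster 7 of 11 genes reached 1 TPM in both libraries, in HOXC 5 of 9, in HOXB 2 of 10 and in HOXD 2 of 9. Apart from *HOXB13*, the HOXB gene that did so was *HOXB7* at 2.64 and 2.79 TPM. Of 23 keratins, 7 did so, and after *KRT18*, *KRT8* and *KRT19* came *KRT10* at 39.7 and 35.03 TPM and *KRT80* at 14.9 and 13.7 TPM.

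Of 17 prostate long non-coding RNAs, 15 were listed and 7 were at 1 TPM or more in both libraries, against 12.8% of all long non-coding RNA genes. The nuclear RNAs *MALAT1* and *NEAT1* were at 506 and 505 TPM and at 55.9 and 62.8 TPM. *SCHLAP1*, known from aggressive prostate cancer, was at 9.16 and 11.7 TPM, *DRAIC* at 5.002 and 5.56 TPM, *PVT1* at 3.40 and 3.68 TPM and *PCAT1* at 2.74 and 3.004 TPM. *PCA3*, the urine marker of prostate cancer, had 7 and 7 counts and *PCGEM1* had 1 and 0 counts. *IGF1R-AS1*, the antisense RNA in the *IGF1R* locus at chr15:98830625-98843895 on the minus strand, was at 5.73 and 6.54 TPM from 116 and 148 counts. *IGF1R*, the growth factor receptor gene on the opposite strand, was at 120.2 and 125 TPM, 20.97 and 19.1 times higher per length. The setting for strand in the counting is not given in the sources used here.

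Of 30 MYC family and cancer genes, 27 were at 1 TPM or more in both libraries, 90% against 61.1% of all protein-coding genes. The cyclin gene *CCND1* was the highest at 1075 and 1073 TPM and *MYC* the next at 303 and 315 TPM, while *MYCN* had 6 and 2 counts. *CDK4*, the partner of cyclin D1, was at 257 and 257 TPM and *CDK6* at 0.448 and 0.507 TPM. Among tumour suppressors, *CDKN1A* was at 104 and 100.1 TPM and *RB1* at 55.9 and 46.1 TPM. *EGFR* was at 25.7 and 23.9 TPM, *ERBB2* at 13.1 and 13.6 TPM, and *ERBB4* had 0 and 1 count.

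The libraries were then compared with each other. Over the 15316 genes with at least 20 counts in both together, log2 CPM correlated across genes with Pearson's r = 0.996 and Spearman's rho = 0.996. These are across genes of a pair of libraries and have no p. After edgeR's TMM scaling, 346 genes (2.26%) were more than 1.5-fold apart, 194 higher in replicate 2 and 152 higher in replicate 1, on the scale of log2(CPM + 0.5). The common biological coefficient of variation was 0.0656. The chi-square statistic per gene averaged 6.50, above the value of 1 that sampling of reads gives, so the libraries differed by more than that sampling. What produced the further difference was not tested. Of the 329 list members with enough counts, 8 (2.43%) were more than 1.5-fold apart.

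Agreement depended on level. The median difference in size was 0.23 on the log2 scale for genes under 1 CPM, where 9.83% were more than 1.5-fold apart, and 0.10 for genes at 10 to 100 CPM, where 0.131% were. None of the 2286 genes at 100 to 1000 CPM or of the 98 at 1000 CPM or more was. It also ran with base composition. In the 2163 genes with the lowest GC content, 29.2 to 40.2%, the median difference, replicate 2 minus replicate 1, was -0.14 on the log2 scale and 14.3% of genes were higher there. In the 2158 genes with the highest GC content, 57.4 to 74.7%, the median was 0.12 and 86.6% were higher. Across 10806 genes, the difference correlated with GC content with Spearman's rho = 0.61, and across 11063 genes with length with rho = -0.07. Both are descriptions across genes that share these 2 libraries, and what produced the trend was not tested. Among list members, *COL1A1*, *COL1A2*, *KRT7*, *DPF1* and *HOXA6* were higher in replicate 2 and *ETV4*, *ETV7* and *UGT2B17* higher in replicate 1 beyond 1.5-fold.

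**Figure D5:**
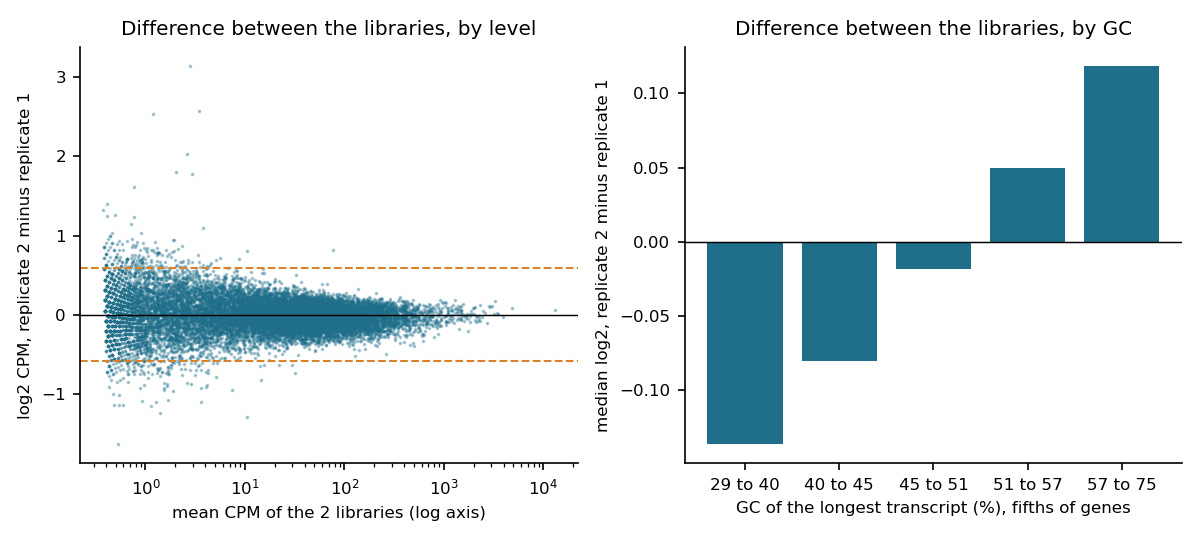
Left, the difference in log2 CPM of each gene, replicate 2 minus replicate 1, against its mean CPM (log axis), with dashed lines at 1.5-fold. Right, bars of the median difference in 5 equal groups of genes by GC content of the longest transcript, from -0.14 in the lowest group to 0.12 in the highest.

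By the rule for genes at 5 TPM or more, the transcripts most in excess in replicate 1 were RP11-16F15.2 at 135.7 and 53.4 TPM and the processed pseudogenes *RPL23AP2*, *EEF1A1P13* and *RPS18P12*, near-copies of highly expressed genes, with RP11-587D21.1. Those most in excess in replicate 2 were *PLA2G4C-AS1*, *SNORA11F*, *RN7SL1*, *WASH3P* and RP11-152N13.16. *RN7SL1*, the RNA of the signal recognition particle, had 1333 and 2653 counts. Genes with near-identical copies are uncertain, since the counting could split their reads.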

How the data were processed

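Poly(A)-selected RNA of VCaP cells was sequenced by the submitters. The authors deposited raw counts per gene, whole numbers without normalization, with the exon length of each gene. The submitters' processing notes name HISAT2 2.1.0, featureCounts 1.5.2 and hg38, and how shared and multi-mapping reads were treated is not given in the sources used here. Groups were taken from the labels. The genes, lists and promoter motifs described were chosen with earlier results of these data known, and *KLK2*, *KLK3* and *SMARCA5* were chosen for their promoters after values were seen.

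CPM was the count over the library total. TPM was the count over the deposited length, scaled over all listed genes. Expressed meant 1 TPM or more in both libraries. Biotypes, coding bases and transcript GC came from GENCODE v44, matched by symbol for 39004 of 59386 genes, so shares by biotype cover the matched genes alone. Promoters came from RefSeq (GRCh38.p14), 1 or more windows a gene, and 90 of 105 remodeler genes had one. Sharing was counted over exon bases of other listed genes on the same strand. Agreement used log2(CPM + 0.5) for genes with at least 20 counts over both libraries, TMM scaling and common dispersion in edgeR 4.0.16 (R 4.3.3), with DESeq2 1.42.0 size factors as an alternative. These steps were tested on simulated data. Intervals are exact Clopper-Pearson (95%). Named genes were all list members, the 25 highest by CPM and by TPM, genes at 1 TPM or more between *ERG* and *TMPRSS2*, the 5 largest folds in each direction between libraries at 5 TPM or more, and the 10 largest changes in rank in each direction among the 500 highest by CPM. Libraries totalled 23898545 and 26552898 counts, which limits genes of few counts most. Alternatives were other thresholds, lengths, filters and scalings, mitochondrial genes left out, and each library alone. Some list members, and a segment set around 1 of them, are not reported here.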

Additional observations from a re-analysis of the deposited data

How the results depend on the processing

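No paired analysis was possible because the control libraries form 1 group and no result here compares groups. The count of genes at 1 TPM or more in both libraries, 14508, was 16110 at 0.5 TPM, 10741 at 5 TPM and 13169 at 1 CPM, and 15419 and 15215 in a library alone. At 5 TPM the counts fell to 1 for stromal, 0 for immune, 9 for androgen metabolism and 10 for HOX genes. At 1 CPM the immune count was 1 and the endothelial count 1, and at 0.5 TPM the endothelial count was 1. With a replicate left out, the endothelial count was 0 to 1, since *VWF* passed in replicate 2 alone. Pearson's r was 0.997 with no filter and 0.997 with a pseudocount of 1 CPM. Genes over 1.5-fold apart numbered 529 with no filter, 74 at 100 counts or more, and 29 beyond 2-fold. They numbered 114 with a pseudocount of 1 CPM, and 167 over protein-coding genes (108 higher in replicate 2 and 59 in replicate 1), both alternatives being chosen after seeing the data. With total counts in place of TMM the number stayed at 346 but 212 were higher in replicate 2 and 134 in replicate 1. The biological coefficient of variation was 0.0646 at 100 counts or more, 0.0650 with total counts, 0.0655 with DESeq2 size factors and 0.0637 over protein-coding genes. With the longest reference transcript as length, 42 of 417 matched named genes had a TPM over 1.5 times higher and 3 over 1.5 times lower. The ratios ran from 0.540 to 7.29. The count of genes at 1 TPM or more was 14089 with that length and 14682 with TPM over nuclear genes alone. Leaving out genes with over 50% of coding bases shared, an alternative chosen after seeing the data, left 14122 genes at 1 TPM or more.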

Other observations

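The protein-coding genes furthest apart between the control libraries included genes of low count known from heart muscle, fibroblasts and immune cells, named here after their values were seen. Beyond 2-fold, 16 genes were higher in replicate 2, 14 of them protein-coding, and 13 were higher in replicate 1. *SFRP2*, a secreted Wnt modulator of fibroblasts, had 4 counts in replicate 1 and 144 in replicate 2. *MYH7* and *MYH6*, the myosin heavy chains of heart muscle and near-identical paralogs, had 15 and 166 counts and 17 and 119 counts. *CD74*, the invariant chain of antigen presentation, had 0 and 64 counts. *COL1A2* had 15 and 92 counts, *IGFBP5* had 25 and 129, *OGN*, a matrix proteoglycan, had 3 and 38, and *DCN* had 1 and 17.

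Lists of such genes were then drawn up, so they are descriptions with no test. They include the genes just named, which were picked for being higher in replicate 2. The counts below were therefore partly set by that choice. Of 20 fibroblast and matrix genes, 14 had a higher CPM in replicate 2 and 5 a lower one, and their sum was 125.7 and 128.8 CPM, most of it from *MGP* at 79.5 and 65.7 CPM. Of 20 heart muscle genes, 7 were higher in replicate 2, 6 were lower and 7 had no count. The last included *MYL2*, *MYBPC3* and *NPPA*, while *TNNT2* had 4 and 4 counts. Of 8 antigen presentation genes, 6 were higher in replicate 2, and *HLA-DRA* had no count in either library. The source of these counts was not tested.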
